A study of Mus musculus with 19 samples.

Results

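Stat factors are transcription factors that carry cytokine signals from the receptor to the nucleus, and Socs proteins are their feedback inhibitors. The array features of 5 Stat factors (Stat2, Stat3, Stat4, Stat5a and Stat6), of 3 Socs genes (Socs1, Socs2 and Socs3) and of Cish, the founding member of the Socs family, were taken by the gene name in the scanner output. Of the 41174 probes that are not controls, 13 belong to these 9 genes, 8 to the Stat factors and 5 to Socs1, Socs2, Socs3 and Cish. Stat3 and Socs2 have 2 probes each, Stat6 has 3 and the other genes have 1.

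The RNA came from circulating leukocytes of male DBA/2 and B6 mice that had all received CAWS by intraperitoneal injection on consecutive days. CAWS is a polysaccharide-rich extract that the yeast Candida albicans releases into its medium, and it is used to inflame the coronary arteries and aorta of mice, from which many DBA/2 but few B6 mice die. Samples were taken right after the last injection (0 w) and then in week 2, 4, 8 or 9 (written 2 w and so on), so that 0 w is itself a treated group, and the later groups hold only mice that survived. Each DBA/2 group had 2 samples, as did the B6 groups of 0 w, 4 w and 8 w, while the B6 groups of 2 w and 9 w had 1. The paper describes each labelled RNA as that of an individual mouse. Both strains are inbred, DBA/2 mice lack functional complement C5, and the ages are given as a range over all mice rather than for each group.

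A cytokine brings together receptor chains that carry Jak kinases, which phosphorylate the receptor and then a Stat factor. Phosphorylated Stat factors pair up, enter the nucleus and switch on target genes, among them Socs1, Socs2, Socs3 and Cish, whose proteins bind the receptor or the kinase and stop the signal. In leukocytes, Stat2 serves type I interferon, Stat3 the interleukin-6 and interleukin-10 families, Stat4 interleukin-12, Stat5a interleukin-2 and growth factor receptors, and Stat6 interleukin-4 and interleukin-13. The arrays measure transcripts, whereas Stat factors are controlled largely by phosphorylation.

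Stat dimers bind palindromic elements known as GAS, and Stat2 acts with partner factors at an element known as ISRE. The promoter windows of RefSeq (GRCm38.p6), each from 250 bases before to 50 bases after a transcription start, were searched for TTCNNNGAA as a GAS-like motif and, on both strands, for GAAANNGAA as the core of an ISRE. Of all 32851 windows, 8.3% held the first and 8.56% the second. Windows were found for 8 of the 9 genes, 2 of them each for Stat4 and Stat5a, and none was found for Socs2. The stretches with a match are shown because Socs3, Cish and Socs1, on which the main results rest, are among them. Capitals mark the motif, and each stretch reads 5′ to 3′ along the strand of its gene.
Socs3, chr11:117969502-117969531, minus strand: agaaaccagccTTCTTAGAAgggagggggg
Cish, chr9:107296654-107296683, plus strand: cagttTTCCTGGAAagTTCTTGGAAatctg
Socs1, chr16:10785598-10785627, minus strand: acttgccgGAAAGAGAAACCGAAagcgggg
Stat2, chr10:128270266-128270295, plus strand: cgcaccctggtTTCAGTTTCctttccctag
Stat4, chr1:52008132-52008161, plus strand: caatgtcttcaGAAAGTGAAatttagaacg
The Socs3 motif is GAS-like and begins at position -154 from the start. The Cish window holds 2 GAS-like motifs, which begin at the bases 1 and 12 after the start, so that they lie in the transcribed part. Socs1 has 2 overlapping ISRE cores, which begin at -83 and -77, and Stat2 has 1 at -221 on the opposite strand. The Stat4 match lies in the second of its windows. These letters were not in the windows of Stat3, Stat5a and Stat6. A match is a description of the sequence and not a measured binding site.

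Signals are given as normalized log2 signal, in which 0 is the 75th percentile of an array's well-detected probes, and a difference of 1 is 2-fold. One probe per gene, the brightest over the 18 samples, stands for the gene. These 9 probes were well above background in all 18 samples, except that of Socs2, which was so in 16. Of the other 4 probes, 3 were tested and the second Socs2 probe was above background in none. Differences were tested with limma over 22939 probes, with the spread of each probe taken from all groups together and p values adjusted by Benjamini-Hochberg (padj) at a threshold of 0.05. Levels of different genes cannot be set against each other, since each probe has its own brightness.

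On each array, 33.9% to 51.4% of the spots were well above background. The samples were hybridized on 6 slides and scanned on 2 days, replicate 1 on the first and replicate 2 on the second. At 0 w, 4 w and 8 w the DBA/2 and B6 arrays lie on different slides, so that a strain difference in level and the slide cannot be told apart there. The DBA/2 arrays of 0 w, 2 w, 4 w and 8 w of a replicate share a slide. Those of 9 w share none with 0 w, and B6 8 w replicate 1 lies on another slide than B6 0 w replicate 1, so that changes at these weeks also cross slides. The leukocyte origin of the RNA shows in the markers of T cells, B cells, monocytes and neutrophils, most of which were well above background in every group, but so were at least 7 of 8 erythroid genes. The 11 genes of a hepatocyte list on the array, of which Hp is also a neutrophil transcript, summed to a scaled signal of 18606 to 19029 in B6 mice at 0 w and 15848 to 15978 at 8 w, with 10 or 11 of them well above background. In the other groups they summed to 1738 to 7134, with 4 to 6 well above background. Fgb, Ahsg, Hp and Tat were above background in all 18 samples, whereas Apoa1, Apoa2, Apoc3 and Fga were so only in the 4 samples with the high sums, and Ttr in 3 of these. In RNA from a mixture of blood cells, fewer cells of a type and less RNA per cell cannot be told apart.

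**Figure D1:**
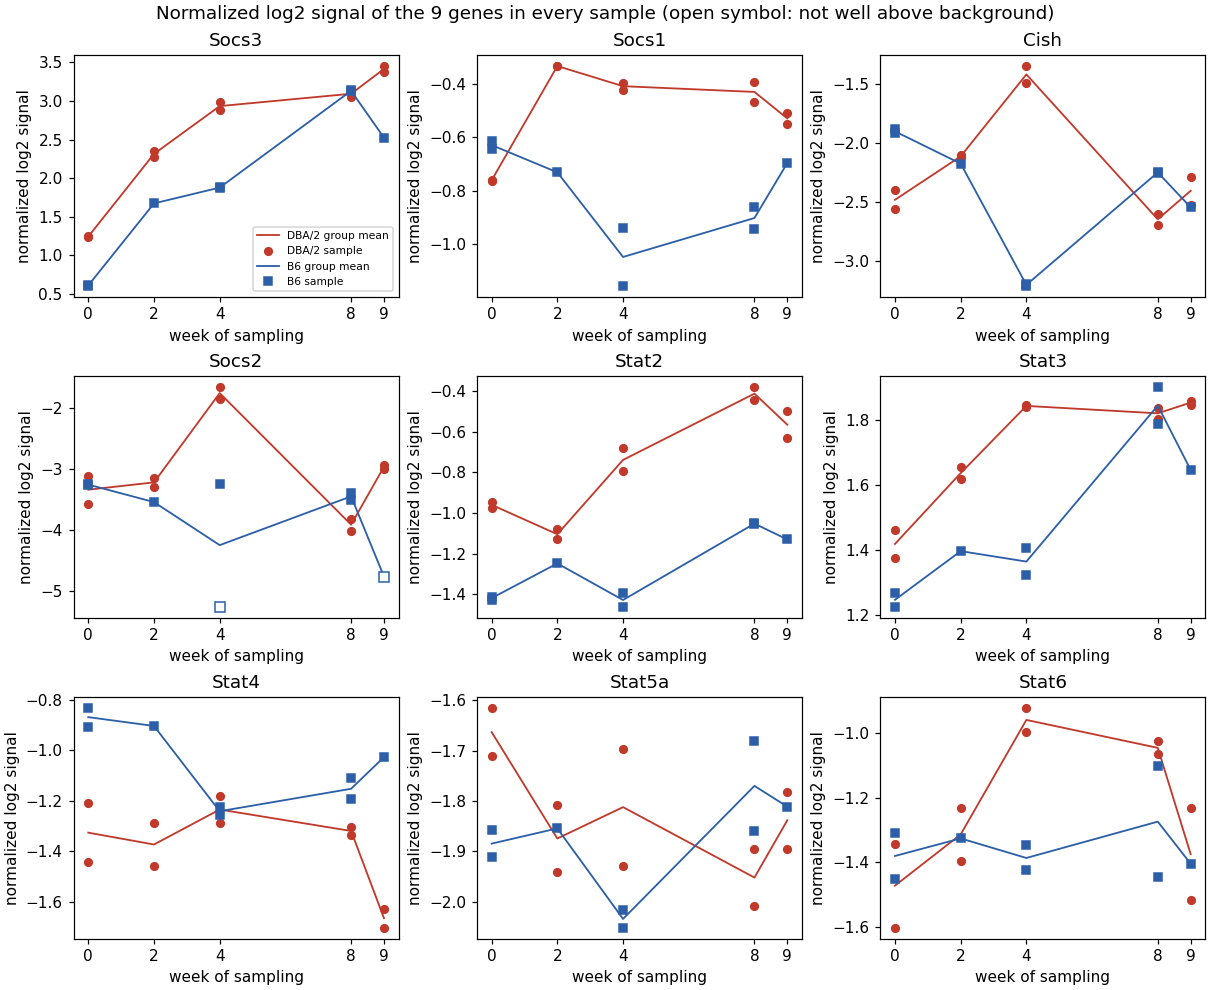
Normalized log2 signal (y axis) of the 9 genes in each sample by week after CAWS (x axis), 1 panel per gene. Points are single samples of DBA/2 and B6 mice and lines join the group means. Socs3 lies above its 0 w samples at every later week in both strains, and Cish has its highest DBA/2 samples and its lowest B6 samples at 4 w.

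Socs3, the inhibitor induced by the interleukin-6 family and by granulocyte colony-stimulating factor through Stat3, rose at every later week in both strains. In DBA/2 mice the normalized log2 signals of the Socs3 probe (chr11:117782256-117782315 on mm8) were 1.25 and 1.24 at 0 w, 2.35 and 2.28 at 2 w, 2.99 and 2.88 at 4 w, 3.13 and 3.06 at 8 w, and 3.45 and 3.37 at 9 w. In B6 mice they were 0.61 and 0.62 at 0 w, 1.67 at 2 w, 1.89 and 1.87 at 4 w, 3.13 and 3.14 at 8 w, and 2.52 at 9 w. In each strain no later sample overlapped with 0 w. The DBA/2 increases were 2.10-fold, 3.22-fold, 3.60-fold and 4.50-fold in order of week (log2 changes of 1.07, 1.69, 1.85 and 2.17, SE 0.07). The B6 increases were 2.09-fold, 2.41-fold, 5.73-fold and 3.76-fold (log2 changes of 1.06, 1.27, 2.52 and 1.91). The padj of these 8 changes ran from 1.06e-07 to 5.06e-05 (limma).

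The time course of Socs3 differed between the strains, although its mean change did not pass the test of a difference. Over 4 w and 8 w the mean log2 change was 1.77 in DBA/2 and 1.89 in B6 mice, a difference of -0.12 with a 95% interval of -0.32 to 0.07 (padj = 0.446). The DBA/2 change exceeded the B6 change by 0.42 at 4 w (padj = 0.0259), and fell short of it at 8 w, with a difference of -0.67 (padj = 0.00209). Leaving out 1 sample at a time ended the call at 4 w in 7 refits, such as 0.37 without DBA/2 4 w replicate 1 (padj = 0.0846), and that at 8 w in none. The 8 w difference was -0.64 within the first scan day and -0.70 within the second. From 4 w to 8 w, Socs3 rose by a further 1.25 in B6 mice (padj = 4.36e-06), against 0.16 in DBA/2 mice (padj = 0.237). In level, DBA/2 samples exceeded B6 samples by 0.63 at 0 w (padj = 0.000141) and 1.05 at 4 w (padj = 4.48e-06), and at 8 w the difference was -0.04 (padj = 0.749).

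The summed neutrophil and, in DBA/2 mice, monocyte markers were higher at later weeks, as Socs3 was. The 12 neutrophil genes summed in DBA/2 mice to a scaled signal of 39850 to 40222 at 0 w and 263736 to 293437 at 8 w, and in B6 mice to 21403 to 21482 at 0 w, 71006 at 2 w, 52523 to 56202 at 4 w and 160876 to 161649 at 8 w. Of the 11 that were tested, 10 rose and 0 fell in the mean change of each strain. Of all tested probes, 9.8% rose and 13.1% fell in DBA/2 mice, and 7.28% rose and 7.73% fell in B6 mice. The 9 monocyte genes summed to 35397 to 37488 at 0 w, 80382 to 89823 at 8 w and 69707 to 80688 at 9 w in DBA/2 mice, and to 48093 to 51944, 65872 to 72428 and 69277 in B6 mice. The neutrophil sum and Socs3 did not take the same course. The DBA/2 sum was back at 98858 to 120990 at 9 w, where Socs3 had its highest samples, and the B6 sum was higher at 2 w than at 4 w, where Socs3 was lower at 2 w. The B6 samples of 0 w and 8 w also had the high hepatocyte sums, with 15848 to 15978 at 8 w against 1988 to 2067 at 4 w. The part of the neutrophil, monocyte and hepatocyte lists in the Socs3 changes and strain differences was not tested.

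**Figure D2:**
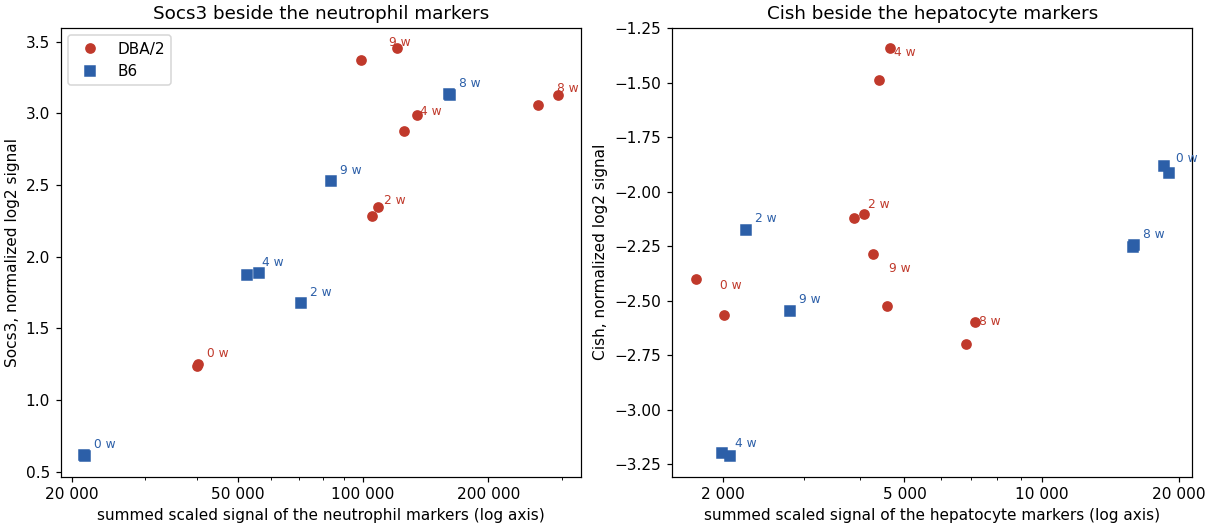
Left, Socs3 normalized log2 signal (y axis) against the summed scaled signal of the neutrophil genes (x axis, log scale). Right, Cish against the sum of the hepatocyte genes. Each point is 1 sample of DBA/2 or B6 mice with its week. The DBA/2 9 w samples have the highest Socs3 at a neutrophil sum below that of 8 w, and the B6 samples of 0 w and 8 w stand apart in the hepatocyte sum.

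Cish, which is induced by interleukin-2 and growth factors through Stat5 proteins and damps the same receptors, moved in opposite directions in the strains at 4 w. The DBA/2 signals of its probe (chr9:107159966-107160025) were -2.40 and -2.56 at 0 w, -2.12 and -2.10 at 2 w, -1.49 and -1.34 at 4 w, -2.70 and -2.60 at 8 w, and -2.52 and -2.29 at 9 w. The B6 signals were -1.92 and -1.88 at 0 w, -2.17 at 2 w, -3.20 and -3.21 at 4 w, -2.24 and -2.25 at 8 w, and -2.55 at 9 w. The 4 w samples were thus the highest of the DBA/2 mice and the lowest of the B6 mice, and lay apart from every other week of their strain. At 4 w Cish rose 2.09-fold in DBA/2 mice (log2 change of 1.07, padj = 0.000116). In B6 mice at 4 w it fell 2.47-fold (log2 change of -1.31, padj = 3.78e-05). The strains differed in this change by 2.37 on the log2 scale (SE 0.14, padj = 9.32e-06), or by 2.19 within the first scan day and 2.55 within the second.

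The divergence of Cish was largest at 4 w and did not pass the test at 8 w. From 4 w to 8 w it fell by 1.23 in DBA/2 mice (padj = 0.000251) and rose by 0.96 in B6 mice (padj = 0.000101). At 8 w the strain difference of the change was 0.18, with a 95% interval of -0.13 to 0.50 (padj = 0.449). The differences at 2 w and 9 w, where B6 mice have 1 sample, were 0.64 (padj = 0.0227) and 0.72 (padj = 0.0175). Averaged over 4 w and 8 w, the change was 0.45 in DBA/2 mice (padj = 0.00469) and -0.83 in B6 mice (padj = 0.000226), a difference of 1.28 (SE 0.12, padj = 0.000196). The DBA/2 mean change was 0.37 without 0 w replicate 2 (padj = 0.0607), and the difference passed in all 18 refits that left out 1 sample. In level, Cish was lower in DBA/2 than in B6 mice at 0 w by -0.58 (padj = 0.00166), higher at 4 w by 1.79 (padj = 1.23e-06) and lower at 8 w by -0.40 (padj = 0.0154).

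The B6 samples with the high hepatocyte sums are those of 0 w and 8 w, whose Cish signals also lie above that of 4 w. A comparison that uses neither week, the change from 2 w to 4 w, differed between the strains by 1.73 (padj = 7.62e-05), with a single B6 sample at 2 w. That sample stood apart in its platelet genes, which summed to 27742, against 73289 to 127865 in all other samples. The part of the hepatocyte and platelet genes in the Cish result was not tested. NK cell genes moved in the same directions as Cish at 4 w. The 8 genes of that list summed to 2010 to 2024 at 0 w and 2434 to 2464 at 4 w in DBA/2 mice, and to 2903 to 2959 and 1682 to 1723 in B6 mice, and their part in the Cish result was not tested. At 8 w the DBA/2 NK cell sum was higher still, at 2793 to 2805, while both Cish signals lay below those of 0 w.

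Socs1, an inhibitor of Jak kinases that limits interferon-γ signaling, rose moderately in DBA/2 mice and fell in B6 mice. The DBA/2 signals of its probe (chr16:10697436-10697495) were -0.76 in both samples at 0 w, -0.33 in both at 2 w, -0.39 and -0.42 at 4 w, -0.39 and -0.47 at 8 w, and -0.55 and -0.51 at 9 w. The B6 signals were -0.61 and -0.65 at 0 w, -0.73 at 2 w, -1.16 and -0.94 at 4 w, -0.94 and -0.86 at 8 w, and -0.70 at 9 w. Every later DBA/2 sample lay above both DBA/2 samples of 0 w, and every later B6 sample lay below both of its own. The DBA/2 change passed the test at 2 w (0.43, padj = 0.00825), 4 w (0.35, padj = 0.0207) and 8 w (0.33, padj = 0.0179), and at 9 w was 0.23 (padj = 0.068). The B6 change passed it at 4 w (-0.42, padj = 0.0094) and 8 w (-0.27, padj = 0.0454), with -0.10 at 2 w and -0.07 at 9 w.

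The mean change of Socs1 over 4 w and 8 w was 0.34 in DBA/2 mice (padj = 0.00811) and -0.35 in B6 mice (padj = 0.011). The strains differed by 0.69, or 1.61-fold (SE 0.10, 95% interval 0.46 to 0.92, padj = 0.00233), and by 0.81 and 0.57 within the scan days. By week the difference was 0.53 at 2 w (padj = 0.025), 0.77 at 4 w (padj = 0.00269), 0.61 at 8 w (padj = 0.00746) and 0.30 at 9 w (padj = 0.185). The levels of the strains were close at 0 w, with a DBA/2 minus B6 difference of -0.13 (padj = 0.276), and DBA/2 mice were higher by 0.64 at 4 w (padj = 0.000316) and 0.47 at 8 w (padj = 0.00257). At 4 w and 8 w the NK cell genes moved in the same directions. In DBA/2 mice they summed to 2010 to 2024 at 0 w, 2434 to 2464 at 4 w and 2793 to 2805 at 8 w. In B6 mice the sums of these weeks were 2903 to 2959, 1682 to 1723 and 2122 to 2163. The DBA/2 sum was 2106 to 2146 at 2 w, where Socs1 had its highest samples. At 9 w the DBA/2 sum was 1503 to 1529, below that of 0 w, while both Socs1 signals lay above those of 0 w. The part of the NK cell genes in the Socs1 result was not tested. The mean changes within a strain missed the threshold when a 0 w sample was left out, with 0.34 in DBA/2 mice without replicate 1 or 2 (padj = 0.0575 and 0.0565) and -0.33 and -0.36 in B6 mice (padj = 0.0917 and 0.0657). The strain difference of the mean change passed in all 18 refits that left out 1 sample, whereas that of 2 w was lost in 6 and the B6 change at 8 w in 14.

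Socs2, an inhibitor of growth hormone signaling, was dim and its 4 w level split the strains. The DBA/2 signals of its main probe (chr10:94842120-94842179) were -3.11 and -3.56 at 0 w, -3.13 and -3.29 at 2 w, -1.85 and -1.65 at 4 w, -3.81 and -4.0 at 8 w, and -2.99 and -2.93 at 9 w. The B6 signals were -3.24 and -3.26 at 0 w, -3.54 at 2 w, -3.23 and -5.25 at 4 w, -3.50 and -3.38 at 8 w, and -4.76 at 9 w, of which -5.25 and -4.76 were not well above background. The 4 w samples were the highest of the DBA/2 mice, as for Cish. They exceeded the B6 samples of 4 w by 2.49 (SE 0.49, padj = 0.0036), which was 1.38 within the first scan day and 3.61 within the second, where the B6 sample was at background. The strain difference of the change at 4 w was 2.58 (padj = 0.0406), and the DBA/2 rise at 4 w, 1.59, did not pass the test (padj = 0.0594). That strain difference was lost in 14 refits that left out 1 sample, such as 2.35 without DBA/2 0 w replicate 2 (padj = 0.125). From 4 w to 8 w Socs2 fell by 2.16 in DBA/2 mice (padj = 0.0273). This call was lost in 4 refits, those that left out a DBA/2 sample of 4 w or 8 w. The single B6 sample of 9 w, which was not well above background, gave a bound of at least 2.65-fold below 0 w. That change did not pass the test, and a bound from 1 sample of a dim probe is no measured decrease.

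**Figure D3:**
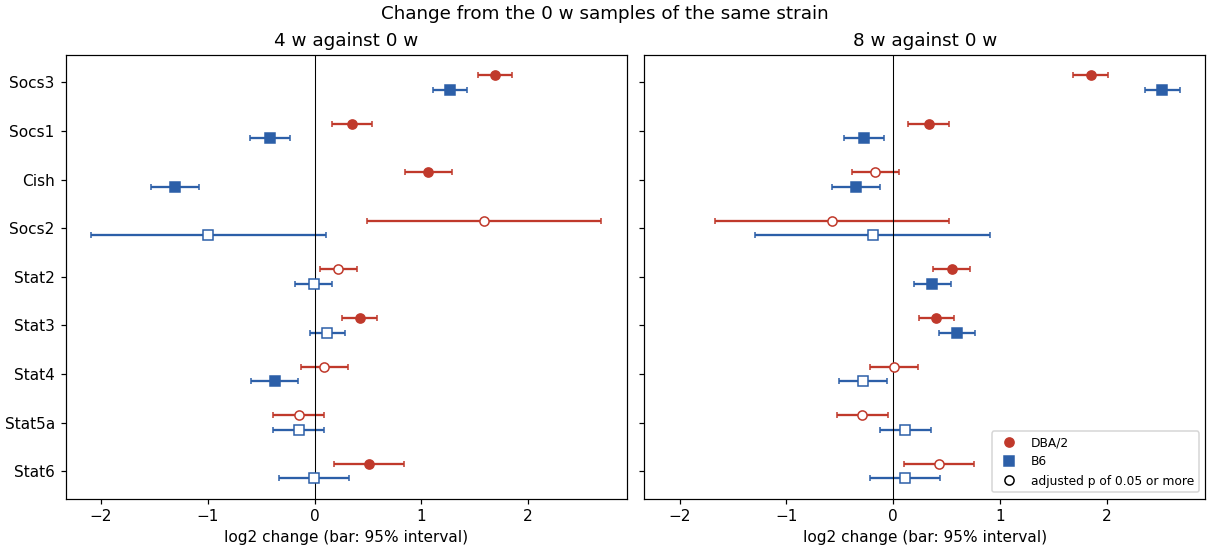
Log2 change from 0 w (x axis) of each gene (y axis) in DBA/2 and B6 mice, as the limma estimate with its 95% interval, at 4 w (left) and 8 w (right). Open symbols did not pass the threshold. Socs3 lies far to the right in both strains, Socs1 lies on opposite sides of 0 in the strains at both weeks, and Cish does so at 4 w.

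Stat2, the factor of the type I interferon receptor, was higher in DBA/2 than in B6 mice at each week with 2 samples of both. The DBA/2 signals of its probe (chr10:127695074-127695133) were -0.95 and -0.97 at 0 w, -1.08 and -1.13 at 2 w, -0.68 and -0.80 at 4 w, -0.38 and -0.45 at 8 w, and -0.50 and -0.63 at 9 w. The B6 signals were -1.41 and -1.43 at 0 w, -1.25 at 2 w, -1.39 and -1.46 at 4 w, -1.05 and -1.06 at 8 w, and -1.13 at 9 w. The highest samples of both strains were those of 8 w. The strains differed by 0.46 at 0 w (padj = 0.00149), 0.69 at 4 w (padj = 0.000114) and 0.64 at 8 w (padj = 0.000265). Stat2 rose at 8 w in DBA/2 mice by 0.55 (padj = 0.00077) and in B6 mice by 0.37 (padj = 0.00825), and at 9 w in DBA/2 mice by 0.39 (padj = 0.00446). Its mean change was 0.38 in DBA/2 mice (padj = 0.00276) and 0.18 in B6 mice (padj = 0.11), and their difference, 0.21, did not pass the test (padj = 0.208).

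Stat3, the factor through which Socs3 is induced, rose in both strains. The DBA/2 signals of its main probe (chr11:100704374-100704433) were 1.38 and 1.46 at 0 w, 1.62 and 1.65 at 2 w, 1.85 and 1.84 at 4 w, 1.80 and 1.84 at 8 w, and 1.86 and 1.85 at 9 w. The B6 signals were 1.23 and 1.27 at 0 w, 1.40 at 2 w, 1.32 and 1.41 at 4 w, 1.79 and 1.90 at 8 w, and 1.65 at 9 w. DBA/2 mice had thus reached their highest range by 4 w, and B6 mice reached it at 8 w. The DBA/2 changes were 0.42 at 4 w (padj = 0.0044), 0.40 at 8 w (padj = 0.00342) and 0.43 at 9 w (padj = 0.00201). The B6 change was 0.12 at 4 w (padj = 0.354), 0.60 at 8 w (padj = 0.000393) and 0.40 at 9 w (padj = 0.0232), the last of which was 0.38 without B6 0 w replicate 1 (padj = 0.0964). As with Socs3, the level in DBA/2 mice was higher at 4 w, by 0.48 (padj = 0.000836), and the strains differed by -0.02 at 8 w. The rises that passed spanned 1.32-fold to 1.51-fold, against the 2.09-fold to 5.73-fold of Socs3.

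Stat4, the factor of interleukin-12 signaling in T cells and NK cells, was lower at 0 w in DBA/2 mice and fell at single weeks. Its DBA/2 signals (chr1:52051503-52051562) lay between -1.70 and -1.18 over all weeks and its B6 signals between -1.26 and -0.83. It fell by 0.34 at 9 w in DBA/2 mice (padj = 0.0303) and by 0.37 at 4 w in B6 mice (padj = 0.032), and in the mean change of B6 mice by 0.33 (padj = 0.0304). The strain difference of the mean change was 0.38 (padj = 0.0737), and the levels at 0 w differed by -0.46 (padj = 0.00604). Each of these calls was lost without some sample, such as that at 9 w without DBA/2 0 w replicate 1 (-0.22, padj = 0.199), that at 4 w without B6 0 w replicate 2 (-0.33, padj = 0.153), the B6 mean change without the same sample (-0.29, padj = 0.184) and the level at 0 w without DBA/2 0 w replicate 2 (-0.34, padj = 0.0503). The 10 T cell genes summed to 5675 to 5808 at 0 w, 3299 to 3344 at 8 w and 3331 to 3511 at 9 w in DBA/2 mice, and to 7562 to 7671 at 0 w and 6024 to 6258 at 4 w in B6 mice. The NK cell genes summed to 1503 to 1529 in DBA/2 mice at 9 w, against 2010 to 2024 at 0 w, and to 1682 to 1723 in B6 mice at 4 w, against 2903 to 2959. At 8 w the T cell sum of DBA/2 mice was as low as at 9 w, while the Stat4 change was 0.0067 (padj = 0.973). The part of either list in the Stat4 falls was not tested.

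Stat6, the factor of interleukin-4 and interleukin-13 signaling, rose slightly in DBA/2 mice. Its DBA/2 signals (chr10:127063582-127063641) ran from -1.60 to -1.34 at 0 w and from -1.0 to -0.92 at 4 w, and its B6 signals from -1.45 to -1.10 over all weeks. The DBA/2 change was 0.51 at 4 w (padj = 0.0436) and 0.47 in the mean of 4 w and 8 w (padj = 0.0243). The next Stat6 probe (chr10:127063230-127063288), also above background in all 18 samples, gave a mean change of 0.45 (padj = 0.0302). The strain difference of the mean change, 0.42, did not pass the test (padj = 0.172). Without DBA/2 0 w replicate 2 the change at 4 w was 0.38 (padj = 0.235) and the mean change 0.34 (padj = 0.209). Another, dim probe (chr10:127049876-127049935), above background in 6 samples, was at least 1.31-fold lower at 9 w in DBA/2 mice (padj = 0.037).

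Stat5a, the factor of interleukin-2 and growth factor signaling, passed the test in no comparison. Its signals (chr11:100700920-100700979) lay between -2.01 and -1.62 in DBA/2 and between -2.05 and -1.68 in B6 mice, and its largest change against 0 w was -0.29 at 8 w in DBA/2 mice (padj = 0.0803). The dim second probe of Stat3 (chr11:100701238-100701297), above background in 7 samples, also passed it in none.

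Counted over the genes, most changes in DBA/2 mice were rises. In the mean of 4 w and 8 w, 6 of 9 genes rose and 0 fell, where 9.8% of all tested probes rose and 13.1% fell. Those that did not pass were Stat4, Stat5a and Socs2. In B6 mice, Stat3 and Socs3 rose and Stat4, Socs1 and Cish fell, against 7.28% of all probes higher and 7.73% lower. This Stat3 rise was lost in 1 refit that left out 1 sample. In the strain difference of these mean changes, Socs1 and Cish were higher and 0 genes lower, against 6.48% and 6.73%. The median of the 9 genes was 0.41 in DBA/2 mice, -0.02 in B6 mice and 0.38 in their difference, where the medians of all tested probes were -0.14, -0.08 and -0.04.

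By week in DBA/2 mice, 3 genes rose at 2 w (Socs1, Socs3 and Cish) and 0 fell, against 7.9% of probes higher and 7.82% lower. At 4 w 5 rose and 0 fell, against 7.58% and 7.24%. Stat3, Stat6 and the 3 inhibitors Socs1, Socs3 and Cish made up these 5. At 8 w 4 rose (Stat2, Stat3, Socs1 and Socs3) and 0 fell, against 10% and 14%, and at 9 w 3 rose and 1 fell, against 13.4% and 14.3%. The fall at 9 w was that of Stat4. From 4 w to 8 w, 1 gene rose (Stat2) and 2 fell (Cish and Socs2), against 3.54% higher and 4.83% lower. This Stat2 call and that of Cish at 2 w were each lost in 10 refits that left out 1 sample, and the Socs2 fall in 4.

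In B6 mice Socs3 alone passed the test at 2 w, where 5.29% of probes were higher and 7.74% lower. At 4 w 1 gene rose and 3 fell, against 6.02% and 9.66%. At 8 w 3 rose and 2 fell, against 11% and 10.2%. Socs3 was among the rises and Socs1 and Cish among the falls of both weeks. The Cish fall at 8 w, with a change of -0.35, was lost in 6 refits that left out 1 sample, and the Socs1 fall at 8 w in 14. At 9 w, with 1 sample, 2 rose and 1 fell, against 5.48% and 3.86%. From 4 w to 8 w, 4 genes rose (Stat2, Stat3, Socs3 and Cish) and 0 fell, against 17.7% and 11.5%.

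Levels of the strains were compared at 0 w, 4 w and 8 w, and more of the 9 genes differed at 4 w than at the other two weeks. DBA/2 mice were higher than B6 mice in 2 genes (Stat2 and Socs3) and lower in 2 (Stat4 and Cish) at 0 w, against 17.2% and 15.4% of all probes. At 4 w they were higher in 7 genes and lower in 0, against 19.1% and 13%, and Stat4 and Stat5a were those that did not pass. The Stat6 call among the 7 was lost in 10 refits that left out 1 sample. At 8 w they were higher in 2 (Stat2 and Socs1) and lower in 1 (Cish), against 10.4% and 15%. Of the strain differences in the change itself, 4 genes were higher at 4 w and 0 lower, against 7.38% and 4.47%, and these were all 4 inhibitors. Among them, the Socs2 call was lost in 14 refits that left out 1 sample and the Socs3 call in 7. At 8 w 1 was higher (Socs1) and 1 lower (Socs3), against 7.19% and 10.3%. In the change from 2 w to 4 w, 3 were higher (Stat2, Socs3 and Cish) and 0 lower, against 11.6% and 7.99%. That comparison rests on 1 B6 sample at 2 w, and its Socs3 call was lost in 5 refits.

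The rest of the pathway was read from lists of receptors, ligands, kinases, other inhibitors and targets. In the mean changes, 9.8% of all tested probes rose and 13.1% fell in DBA/2 mice, 7.28% rose and 7.73% fell in B6 mice, and 6.48% were higher and 6.73% lower in the difference. Of 26 tested receptor genes, 9 rose and 2 fell in the mean change of DBA/2 mice and 5 rose and 5 fell in B6 mice, and 5 were higher and 1 lower in the strain difference. Il2rb, a chain of the interleukin-2 receptor at which Cish acts, changed by 0.72 in DBA/2 and -1.18 in B6 mice (difference of 1.91, padj = 8.86e-06). Il12rb1, a chain of the receptor upstream of Stat4, changed by 0.94 and -1.18 (difference of 2.12, padj = 0.000236). In level both started lower in DBA/2 mice. The DBA/2 and B6 means of Il2rb were -0.15 and 1.23 at 0 w, 1.12 and -0.12 at 4 w, and 0.03 and 0.22 at 8 w. Those of Il12rb1 were -4.25 and -2.30, -3.04 and -3.86, and -3.59 and -3.09. Il13ra1, which works through Stat6, rose in both strains, by 2.77 and 1.79 (difference of 0.98, padj = 0.00328). Only 1 of its 2 DBA/2 samples of 0 w was well above background, so that the DBA/2 rise and the difference are uncertain in size. Ghr, the growth hormone receptor at which Socs2 acts and the 1 receptor lower in the difference, was above background in 6 samples, of which none was a B6 sample of 0 w, 4 w or 8 w or a DBA/2 sample of 4 w, so that no size is given for its change.

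Of 12 tested ligand genes, 4 rose and 0 fell in DBA/2 mice (all probes 9.8% and 13.1%), 0 rose and 2 fell in B6 mice (7.28% and 7.73%), and 3 were higher and 0 lower in the strain difference (6.48% and 6.73%). Besides Ifng, with a difference of 2.28 (padj = 2.43e-05), these were Il4 and Ebi3. The DBA/2 and B6 means of Ifng were -3.48 and -2.14 at 0 w, -1.68 and -2.93 at 4 w, and -1.98 and -2.62 at 8 w. Il4, the ligand of the Stat6 pathway, changed by 0.99 in DBA/2 and -0.66 in B6 mice (difference of 1.65, padj = 5.4e-05). Ebi3, a subunit of interleukin-27 and interleukin-35, changed by 0.97 and 0.13 (difference of 0.84, padj = 0.00318). Of the 4 kinases, Jak2, which serves the growth hormone and interferon-γ receptors among others, rose in both strains, by 0.30 (padj = 0.00513) and 0.47 (padj = 0.000678). Jak1 changed by -0.25 in DBA/2 (padj = 0.0136) and 0.05 in B6 mice (difference of -0.30, padj = 0.0432). Jak3 and Tyk2 passed in neither strain, with -0.08 and 0.19 in DBA/2 mice and 0.45 and -0.04 in B6 mice.

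Of 11 tested genes of other inhibitors, 2 rose and 1 fell in DBA/2 mice (all probes 9.8% and 13.1%), 3 rose and 0 fell in B6 mice (7.28% and 7.73%), and 1 was higher in the strain difference, a share close to the 6.48% of all probes. It was Ptpn6, a phosphatase of leukocytes that acts on Jak kinases, with changes of 0.45 and 0.04 (difference of 0.40, padj = 0.0409). Of 14 tested target genes, 8 rose and 1 fell in DBA/2 mice (9.8% and 13.1%) and 4 rose and 4 fell in B6 mice (7.28% and 7.73%), and 5 were higher and 1 lower in the difference (6.48% and 6.73%). Gbp2, an interferon-induced GTPase, rose by 2.94 in DBA/2 mice and 0.44 in B6 mice (difference of 2.50, padj = 1.49e-05). Tbx21, which directs T cells to interferon-γ production, changed by 0.63 (padj = 0.0684) and -0.79 (padj = 0.0388), a difference of 1.41 (padj = 0.0161). Icam1, an adhesion molecule, changed by 0.71 and -0.34 (difference of 1.05, padj = 0.00026). At 0 w the DBA/2 and B6 means were -0.60 and 0.42 for Tbx21 and -1.25 and -0.54 for Icam1, so that DBA/2 mice started lower in both. Myc, which drives growth, changed by -0.32 and 0.16 (difference of -0.48, padj = 0.0347). The median strain difference was 0.14 for receptors, 0.45 for ligands, -0.23 for kinases, -0.22 for other inhibitors and 0.35 for targets, beside -0.04 over all probes.

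**Figure D4:**
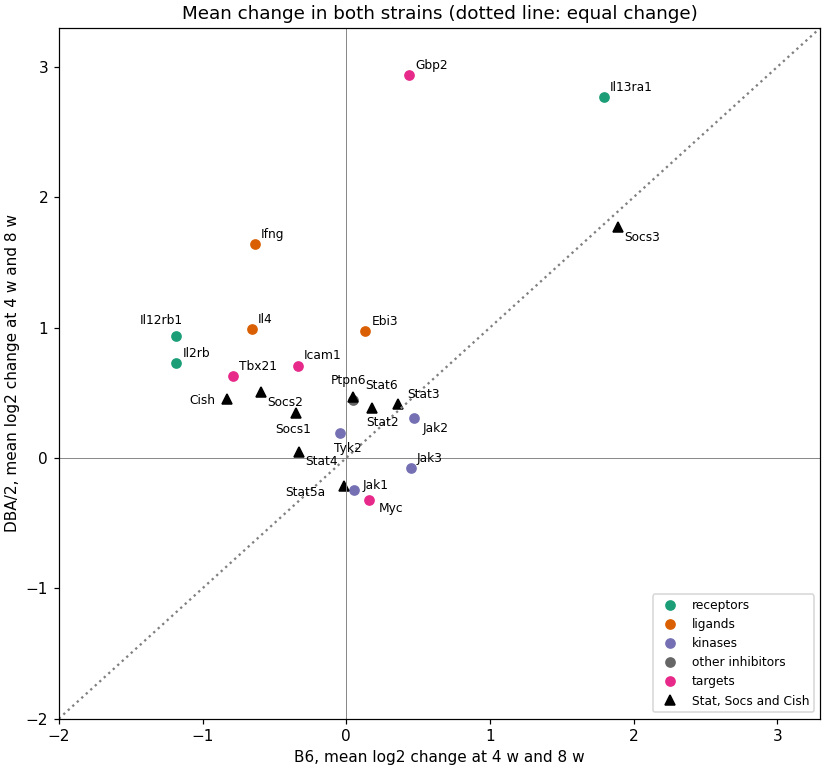
Mean log2 change over 4 w and 8 w from 0 w in B6 (x axis) and DBA/2 mice (y axis) for the Stat, Socs and Cish genes (triangles) and the named genes of the other lists (circles, colored by list), without Ghr, which was at background in most groups. On the dotted line the change is equal. Socs3 lies near the line at 1.89 and 1.77, and Cish and Il2rb lie to the left of 0 and above it.

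The genes whose signal followed each course most closely were sought among 9706 probes above background in all samples. Pearson's r was taken over the 18 samples, which share strain, week and array scaling, and is a description. Socs3 was followed most closely by Csf2rb1 (r = 0.98), Mefv (0.98) and Cd300lf (0.97), and Stat3 by Fgr (0.98), Csf2rb1 (0.97) and Pira3 (0.97), so that 1 gene stood in both lists. For Cish they were Cxcr3 (0.97), Rgs3 (0.89) and P2rx7 (0.88), and for Socs2 Cxcr6 (0.81), Rgs3 (0.80) and Id2 (0.79). Cxcr3 and Cxcr6 are chemokine receptors of effector T cells and NK cells. For Socs1 they were Ncr1 (0.84), an NK cell receptor, Armc3 (0.83) and Mrfap1 (0.83). Stat2 was followed by Ctsc, Adam17 and Cnot8 (0.95 to 0.96), Stat4 by Ccnd2, Pop5 and Gimap5 (0.92 to 0.93), Stat6 by Morf4l2, Ywhaq and Kpna4 (0.86 to 0.88), and Stat5a by Eif4ebp3, Cdk5rap3 and Wdr6 (0.80 to 0.87).

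Most of these calls did not pass with another background correction. With normexp correction of the raw pixel values, the strain differences of the mean change were 0.82 for Cish (padj = 0.959) and 0.49 for Socs1 (padj = 0.543), in the same direction but short of the threshold. That of Cish at 4 w was 1.14 (padj = 0.646). The mean rises of Socs3 in both strains still passed it. Its strain differences of the change at 4 w (0.53) and 8 w (-0.67, padj = 0.377) kept their direction but did not pass. Of the 79 calls on the 9 genes over all comparisons, 67 were lost with normexp and 35 without the filter on dim probes. The latter include each change of Socs1 within a strain (padj of 0.0779 and 0.111 in the mean changes) and its strain differences at 2 w and 8 w (padj = 0.191 and 0.0757), those of Cish at 2 w and 9 w (padj = 0.14 and 0.118), those of Socs3 and Socs2 at 4 w (padj = 0.25 and 0.1), and the Stat6 calls. Stat3 lost its DBA/2 rises at 4 w and 8 w (padj = 0.0716 and 0.0533) and its B6 rises in the mean change (padj = 0.0767) and at 9 w. Its mean rise in DBA/2 mice (padj = 0.0269) and its B6 rise at 8 w (padj = 0.0102) still passed. The B6 fall of Cish at 8 w (padj = 0.173) and the DBA/2 fall of Socs2 from 4 w to 8 w (padj = 0.0848) were also lost. The strain differences of Cish and Socs1 in the mean change (padj = 0.00237 and 0.0317) and at 4 w (padj = 0.000106 and 0.0374), and that of Socs3 at 8 w (padj = 0.0394), still passed without that filter.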

How the data were processed

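Cy3-labelled RNA of 18 leukocyte samples was measured on 19 single-color Agilent whole mouse genome arrays, 2 of which hold B6 0 w replicate 2 and were averaged. The deposited processed signal of Feature Extraction (9.5.3.1 per the labels) is an intensity from which the authors' software had subtracted the background and spatial trends. The deposited value table holds the same intensity averaged per probe. Here outlier spots were dropped, spots of a probe averaged, and log2 signal was lowered by the array's 75th percentile over the 11536 probes that every array called well above background. A scaled signal is this value returned to the linear scale of an average array. The 22939 of 41174 probes well above background in at least 2 samples were fitted with limma 3.58.1 (R 4.3.3, lmFit and eBayes, 10 group means, 8 residual degrees of freedom), two-sided. Python 3.11.15 read and plotted the values.

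The genes and lists were chosen with earlier results of these data known. Every probe of the 9 genes is given. Of the pathway lists, the 3 largest rises and falls past the threshold in the strain difference and all kinases are named, and for each gene the 3 probes that correlate with it best. The strain differences at single weeks, the change from 2 w to 4 w and those between later weeks were chosen after seeing the data. Alternatives were normexp (offset 50) on the pixel means, quantile normalization, the 75th percentile over all probes, the value table, a floor of 10, other filters on dim probes, outlier spots kept, a block for the replicate number or the slide, only 1 of the averaged arrays, each strain alone, the mean of a gene's probes, and each sample left out. The procedure was tested on simulated data. With at most 2 samples a group, the number of arrays limits precision, and the p values measure the spread between these samples. The 2 samples of a group could lie very close. The standard deviation was 0.0008 for Socs1 in DBA/2 mice at 2 w and 0.006 for Socs3 in B6 mice at 0 w. Whether this spread is as wide as that between mice was not tested.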

Additional observations from a re-analysis of the deposited data

Results flagged for a closer look

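The groups hold at most 2 samples, too few to test a sample against its own group. The results below are those in which the change differed between DBA/2 and B6 mice in limma's test of the difference. Differences are DBA/2 minus B6 on the log2 scale. For Cish the mean change over 4 w and 8 w differed by 1.28, the change at 2 w by 0.64, that at 4 w by 2.37, that at 9 w by 0.72 and that from 2 w to 4 w by 1.73. For Socs1 the mean change differed by 0.69, and the changes of 2 w, 4 w and 8 w by 0.53, 0.77 and 0.61. Socs3 differed by 0.42 at 4 w, -0.67 at 8 w and 0.41 from 2 w to 4 w, so that its difference changed sign between 4 w and 8 w. The Socs3 difference from 2 w to 4 w rests on 1 B6 sample at 2 w and was lost in 5 refits that left out a sample. It also did not pass without the filter on dim probes (adjusted p = 0.253). Socs2 differed by 2.58 at 4 w, where 1 of the 2 B6 samples was not well above background and the call was lost in 14 refits that left out a sample, so that the size is uncertain. Stat2 differed by 0.54 from 2 w to 4 w, which rests on 1 B6 sample at 2 w and did not pass without the filter on dim probes (adjusted p = 0.126).

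Among the other genes of the pathway, the mean changes of the receptors Il12rb1, Il2rb and Il13ra1 differed by 2.12, 1.91 and 0.98. The fitted value for Ghr, -1.94, is no measured size, since its signal was not above background in any B6 sample of 0 w, 4 w and 8 w or in DBA/2 mice at 4 w. The mean changes of the ligands Ifng, Il4 and Ebi3 differed by 2.28, 1.65 and 0.84. The targets Gbp2, Tbx21, Icam1 and Myc differed by 2.50, 1.41, 1.05 and -0.48, the phosphatase gene Ptpn6 by 0.40 and the kinase gene Jak1 by -0.30. All of these use the B6 0 w samples except the changes from 2 w to 4 w. Those of the mean change and of 8 w also use the B6 8 w samples. The high hepatocyte sums of the B6 samples of 0 w and 8 w were not tested for a part in them.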

How the results depend on the processing

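In the mean change of DBA/2 mice, that of B6 mice and their difference, 7, 5 and 2 probes of the 9 genes and 5246, 3445 and 3029 of all probes passed the threshold. With normexp these were 1, 1 and 0 of the genes' probes (Socs3 in both strains) and 586, 179 and 90 of all, and the cause was not tested. Without a filter on dim probes they were 4 and 2 of the genes' probes in DBA/2 and B6 mice, and 3056, 1632 and 1260 of all. With the slide as a random block, 5937 of all probes passed in B6 mice, and 5 of the genes' probes and 5448 of all in the difference. B6 mice fitted alone gave 3 of the genes' probes and 2121 of all. Leaving out 1 sample at a time gave 3 to 8, 2 to 6 and 2 to 3 of the genes' probes and 3069 to 5592, 1709 to 3747 and 1804 to 3230 of all. The lowest counts of all probes came without a 0 w sample, DBA/2 0 w replicate 2 (3069), B6 0 w replicate 1 (1709) and B6 0 w replicate 1 (1804).

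The change of Stat4 at 9 w in DBA/2 mice turned to 0.16 and that of Cish from 4 w to 8 w in B6 mice to -0.12 with normexp, which moved the median of all probes to 0.78 and -0.62 there. The mean change of Stat6 in DBA/2 mice turned to -0.039 in the mean of its tested probes, which includes the dim one. Under normexp this median ran from -0.63 to 1.10 over the comparisons. Calls on 1 gene that rested on single samples included those of Socs2 at 4 w (strain difference past the threshold in 4 of 18 refits, level difference 1.49 to 3.50), Stat6 at 4 w in DBA/2 mice (6 of 18), Socs1 at 8 w in B6 mice (4 of 18), and Socs3 at 4 w in the strain difference (11 of 18). Also lost, each in 10 refits, were the DBA/2 calls of Cish at 2 w and of Stat2 from 4 w to 8 w. The same held for the level difference of Stat6 at 4 w. The strain differences of the mean change passed in 18 of 18 for Cish (1.2 to 1.36) and Socs1 (0.64 to 0.74).

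Of the 19 comparisons, the count of all probes moved by over 1.5 times in 19 with normexp (0.0234 to 0.443 of the main count), in 16 without the filter (0.212 to 0.702), in 10 with the slide block (0.971 to 2.16) and in 6 of 12 with each strain alone (0.322 to 0.881). Of the called probes in the mean changes, 42.9% rose in DBA/2 and 48.5% in B6 mice, against 53.8% and 59.3% after quantile normalization and 63.0% and 65.3% with the 75th percentile over all probes.

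Deviations of samples with the same replicate number correlated by -0.01 to 0.46 over 28 pairs of groups (median 0.08, 12 of them over 0.1), so that the numbers, which coincide with the scan day, were not taken to pair the samples. With the replicate number as a block, 7, 6 and 3 of the genes' probes and 6566, 4771 and 4197 of all passed, the strain difference of Cish kept 1.28, and the count for DBA/2 mice from 4 w to 8 w was 3140 against 1921. Signal over background limits Socs2 in particular.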
